A study of Mus musculus with 6 samples.

Results

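Genes that modify, read or remodel chromatin were followed through the alternative splicing data of 6 RNA sequencing libraries. Members were chosen by gene symbol alone, as the families Hdac, Kdm, Kmt, Setd, Suz12, Ezh, Brd, Chd, Smarc, Arid, Morf4l, Kat, Phf, Ing, Dnmt, Tet, Ncoa, Ncor, Baz, Jmjd, Ehmt, Prdm, Prmt, Sirt, Mbd, Cbx and Hist. Of 45 such genes with an event in any library, 43 were listed in all 6, with 75 events among the 4658 events of 2685 genes that could be compared. Primary mouse medullary thymic epithelial cells, which show self-antigens to developing T cells, were grown on human dermal fibroblasts in a fibrin gel. They were infected with lentivirus that carried GFP and a short hairpin RNA, and live MHC class II+ GFP+ cells were sorted 5 days later. The control group (Ctr) had 2 libraries with a hairpin against bacterial LacZ, and each knockdown group had 2 libraries with a different hairpin each (sh1 and sh2), against Raver2 or against Setd2. All 3 groups shared the culture, the vector and the sort, and no mouse strain, age or number of animals is stated in the labels. The 2 libraries of a knockdown group carry different hairpins, so their variation includes any difference between hairpins. Whether the Ctr libraries are independent cultures is not stated, and their variation may be technical. The test used below shares a single estimate of spread per event over the 3 groups and so mixes these kinds of variation. A p-value here reflects no more than how far these libraries vary.

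Chromatin regulators act on the histone proteins that package DNA. Writers such as acetyltransferases and methyltransferases add marks, erasers such as deacetylases and demethylases remove them, readers bind them through bromodomains, chromodomains or PHD fingers, and remodellers move nucleosomes with the energy of ATP. Setd2 trimethylates lysine 36 of histone H3 along transcribed genes. Morf4l1, also called MRG15, reads that mark and is known for recruiting the splicing repressor PTB to some exons. Raver2 is an RNA-binding partner of PTB.

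Each alternative splicing event had an inclusion frequency, a fraction from 0 (always skipped) to 1 (always included). It is a ratio within a gene and carries no expression level. Altered splicing in every cell and an altered share of cells that splice differently cannot be told apart. Neither target could be checked: Setd2 and Raver2 had no event in any library. Among cell type markers, 2 of 10 of medullary thymic epithelium (Aire and Cd74), 1 of 10 of fibroblasts (Postn) and 4 of 10 of leukocytes (Ptprc, Cd8a, Lck and Cd68) had an event, which says nothing of how many such cells there were. The libraries held 4777 to 4949 events each. The number of reads per event is unknown, and a fraction near 0 or 1 may rest on few of them.

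The event of a gene is known only by its place in the gene's list, and the exon concerned is not named. A shared order between libraries was checked by correlation over many events and not event by event, so a value of a gene with several events, such as Hdac7 event 4 or Arid5a events 1 and 3, may belong to another event in some library. For orientation, the GENCODE M21 annotation of mm10 was searched for cassette exons, here internal exons of a protein-coding transcript that another protein-coding transcript skips between the same flanking splice sites. Such exons were annotated in 31 of the 43 genes, and 9 genes had a single event and a single annotated cassette exon. The exons of 5 of these 9 are shown, those of the genes for which a test of the event is given. The other 4 genes (Arid4b, Brd2, Phf8 and Tet1) are described by their values alone. They are coding throughout and printed in transcript direction with no letter marked, and whether the measured event is this exon was not tested. The exon of Ncoa2 (chr1:13164896-13165102, minus strand) has 207 bases, that of Sirt2 (chr7:28767632-28767678, plus strand) 47, that of Suz12 (chr11:79999057-79999125, plus strand) 69, that of Prdm16 (chr4:154322271-154322445, minus strand) 175 and that of Smarca1 (chrX:47855578-47855613, minus strand) 36. Of these lengths, those of Sirt2 and Prdm16 are not a multiple of 3. How skipping either exon would change the protein was not tested.
Ncoa2: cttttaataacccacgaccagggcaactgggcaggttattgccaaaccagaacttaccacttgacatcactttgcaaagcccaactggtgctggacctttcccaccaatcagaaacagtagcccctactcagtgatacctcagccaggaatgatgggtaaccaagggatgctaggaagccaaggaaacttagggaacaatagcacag
Sirt2: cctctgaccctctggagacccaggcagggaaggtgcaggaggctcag
Suz12: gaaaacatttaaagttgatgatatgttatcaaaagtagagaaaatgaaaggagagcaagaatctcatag
Prdm16: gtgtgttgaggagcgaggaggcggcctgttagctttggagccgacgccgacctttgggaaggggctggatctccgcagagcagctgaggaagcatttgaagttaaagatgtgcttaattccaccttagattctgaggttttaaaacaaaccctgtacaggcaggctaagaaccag
Smarca1: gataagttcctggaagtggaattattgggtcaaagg

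The 75 events were spread over the scale: in Ctr, 21 had a mean inclusion below 0.2, 33 lay from 0.2 to 0.8 and 21 lay above 0.8. Fractions at the ends of the scale were less common than in the whole table: at least 1 library was below 0.01 or above 0.99 in 21 of 75 events (28.0%), while this held for 57.1% of the 4658. Not all events were separate measurements. Events of 7 genes (Dnmt3l, Ezh2, Hdac10, Hdac5, Hdac9, Jmjd4 and Ncor1) were equal to, or the complement of, another event of the same gene to within 0.01 in every library, and joining them left 64 distinct measurements. The largest such block was Ncor1, the nuclear receptor corepressor that carries Hdac3, whose 6 events were a single value and its complement. Hdac7 events 1 and 5 and Ehmt1 events 1 and 3 mirrored each other less closely and were not joined, so 64 is an upper count. By family there were 17 events of 7 deacetylase genes, 9 of 6 acetyltransferase complex and coactivator genes, 11 of 8 methyltransferase family genes, 3 of the demethylase family gene Jmjd4, 12 of 10 reader genes, 9 of 6 remodelling family genes, 6 of 3 DNA methylation genes and 8 of 2 corepressor genes. No Kdm or histone (Hist) gene was listed. A family name does not mean that each member has the activity: Arid5a, for example, binds RNA and DNA and is not a subunit of a remodeller.

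**Figure D1:**
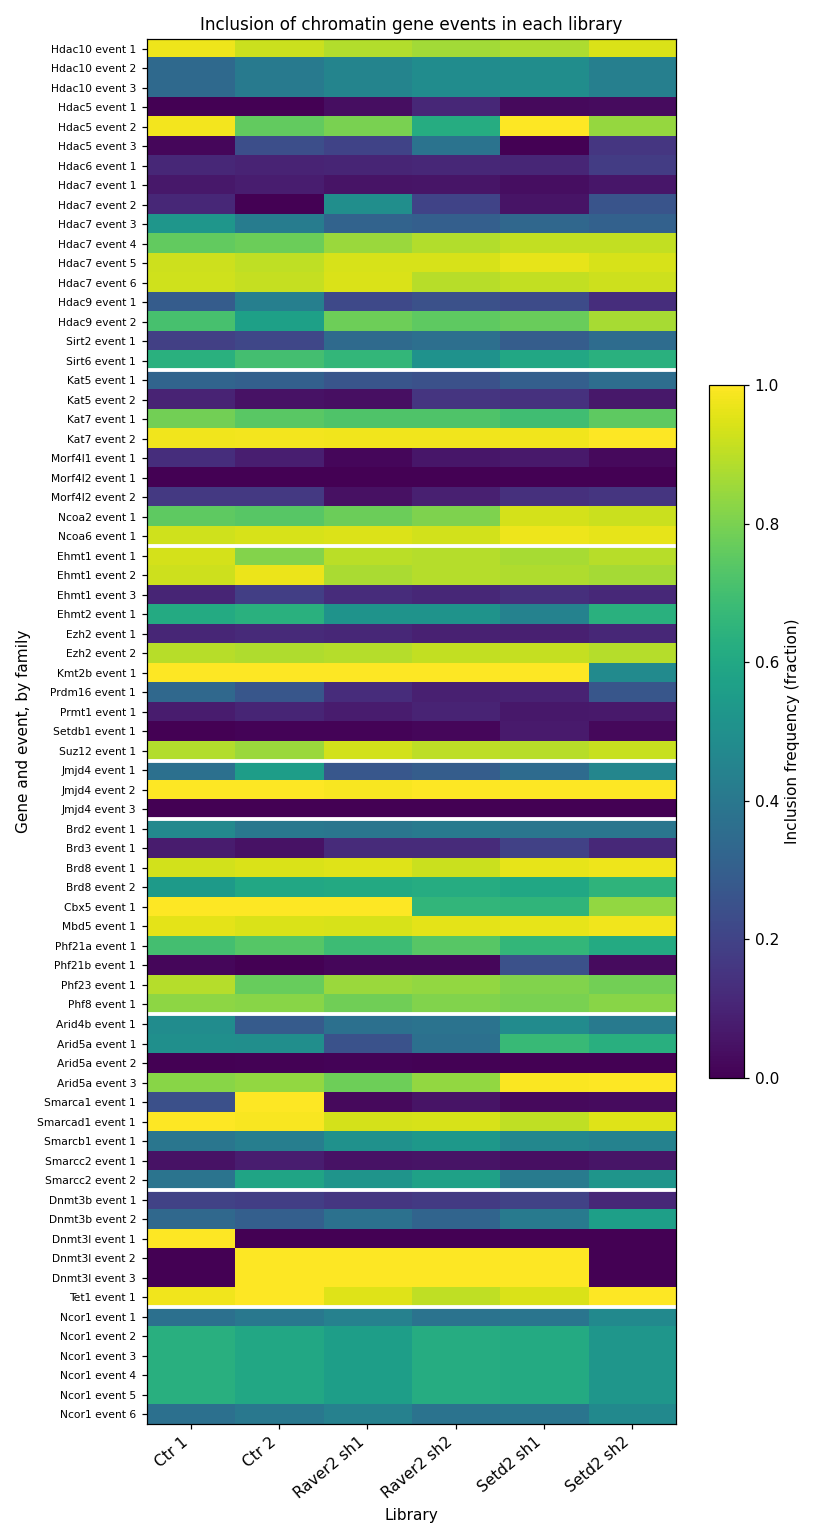
Inclusion frequency (colour, fraction from 0 to 1) of 71 of the 75 chromatin gene events (rows, ordered by family and separated by white lines) in each of the 6 libraries (columns). Most rows keep their colour across the libraries; Dnmt3l and Smarca1 differ between the 2 Ctr libraries.

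When Setd2 was knocked down, 2 chromatin events passed the test against Ctr, and both were higher. Passing means an adjusted p under 0.05 in limma, a linear model fitted here to all 4658 events and all 6 libraries. Ncoa2 and Hdac7 event 4 were the events concerned. The share was 2 of 75 (2.67%), against 2.23% of all events called in this comparison, so it is near the background and is not a result about chromatin genes as a group. By direction the background was 0.880% higher and 1.35% lower.

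Ncoa2 is a coactivator of nuclear receptors that brings histone acetyltransferases to their target genes (chromosome 1, 13139105 to 13374083, minus strand). Its single event was included at 0.750 and 0.739 in the Ctr libraries, 0.774 and 0.806 under Raver2 knockdown (sh1 and sh2) and 0.935 and 0.921 under Setd2 knockdown. The Setd2 libraries lay above the other 4 with no overlap, and the Raver2 libraries lay between. The mean rose from 0.745 ± 0.00825 in Ctr to 0.928 ± 0.00998 (SD, n = 2), a difference of 0.183 ± 0.0158 (SE; limma, adjusted p = 0.0289). Under Raver2 knockdown the difference from Ctr was 0.0450 ± 0.0158 and did not pass (adjusted p = 0.414). The knockdowns did not differ by test either (difference -0.138 ± 0.0158, Raver2 minus Setd2; adjusted p = 0.123). The difference from Ctr under Setd2 knockdown passed in 4 of 12 other settings. Leaving out any of the 6 libraries ended the call (adjusted p = 0.0608 to 0.125).

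Hdac7, a class IIa deacetylase that represses transcription and is known in developing thymocytes, had 6 events (chromosome 15, 97792664 to 97844502, minus strand). Event 4 was included at 0.760 and 0.775 in Ctr, 0.849 and 0.884 under Raver2 knockdown and 0.909 in both Setd2 libraries. The 4 knockdown libraries all lay above Ctr. Under Setd2 knockdown the mean rose from 0.767 ± 0.0104 to 0.909 ± 0.000350 (difference 0.142 ± 0.0153, SE; limma, adjusted p = 0.0493). This value is close to the threshold, and the call held in none of the 12 other settings (adjusted p = 0.05005 to 0.169). Under Raver2 knockdown event 4 differed from Ctr by 0.0990 ± 0.0153 and did not pass (adjusted p = 0.109). It was there the chromatin event with the smallest adjusted p. Between the knockdowns the difference was -0.0426 ± 0.0153 (Raver2 minus Setd2; adjusted p = 0.837).

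The other events of Hdac7 did not pass in any comparison. Event 3 was at 0.527 and 0.421 in Ctr, 0.320 and 0.303 under Raver2 knockdown and 0.335 and 0.310 under Setd2 knockdown, so every knockdown library was below Ctr. Event 5 was at 0.923 and 0.905 in Ctr and from 0.938 to 0.962 in the 4 knockdown libraries. Nearly its mirror, event 1 was at 0.0638 and 0.0811 in Ctr and from 0.0357 to 0.0606 in the 4 knockdown libraries. Event 6 was high throughout, from 0.894 to 0.943. Event 2 was the least repeatable of the gene: it was 0.112 and below 0.01 in Ctr, 0.495 and 0.201 under Raver2 knockdown and 0.0527 and 0.259 under Setd2 knockdown. It overlapped with Ctr under Setd2 knockdown, while both Raver2 libraries lay above Ctr.

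**Figure D2:**
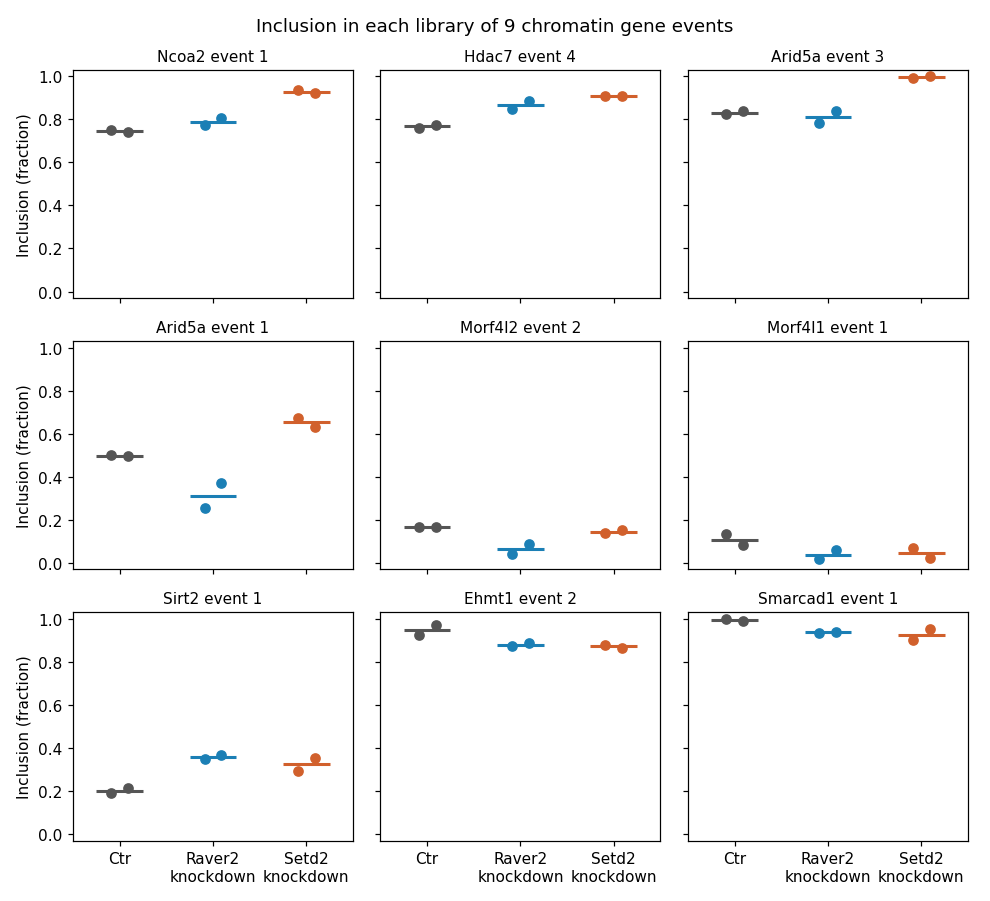
Inclusion frequency (y axis, fraction) of 9 chromatin gene events in each library (points) by group (x axis), with the group mean as a line. In Ncoa2, Hdac7 event 4 and Arid5a events 1 and 3 the Setd2 libraries lie above both Ctr libraries; in Morf4l2 event 2 the Raver2 libraries lie below both.

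Other deacetylases showed no call with every library included. Sirt2, a mainly cytoplasmic NAD-dependent deacetylase that acts on tubulin and histones, was included at 0.189 and 0.213 in Ctr, 0.347 and 0.366 under Raver2 knockdown and 0.294 and 0.354 under Setd2 knockdown. Both knockdown groups lay above Ctr, by 0.155 ± 0.0406 (SE; limma, adjusted p = 0.286) and 0.123 ± 0.0406 (adjusted p = 0.401). Hdac9, another class IIa deacetylase, had a pair of complementary events; event 2 was at 0.708 and 0.567 in Ctr, 0.779 and 0.752 under Raver2 knockdown and 0.770 and 0.869 under Setd2 knockdown. Its Ctr libraries differed from each other by 0.141, and the difference under Setd2 knockdown did not pass (0.182 ± 0.0656; adjusted p = 0.449). Hdac5, of the same class, had an event 1 below 0.01 in each Ctr library, at 0.0370 and 0.112 under Raver2 knockdown and at 0.0248 and 0.0300 under Setd2 knockdown (Raver2 knockdown against Ctr, adjusted p = 0.434). Without Raver2 sh1 the Raver2 difference was 0.112 from Ctr and 0.0843 from Setd2 knockdown. Both differences were called there, which rests on the library of Raver2 sh2 alone. Hdac5 events 2 and 3 were complements, with event 2 from 0.620 to above 0.99. Hdac10, a polyamine deacetylase, had an event 1 at 0.975 and 0.920 in Ctr, 0.884 and 0.861 under Raver2 knockdown and 0.876 and 0.942 under Setd2 knockdown, and an equal pair of events 2 and 3 at 0.341 and 0.408 in Ctr and from 0.433 to 0.490 in the knockdown libraries. Hdac6, the tubulin deacetylase, stayed between 0.0979 and 0.179, and Sirt6, a nuclear deacetylase of histone H3, between 0.510 and 0.700.

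Morf4l1 and Morf4l2 are paralogs and are subunits of acetyltransferase and deacetylase complexes, and Morf4l1 is the reader of the Setd2 mark named above. Morf4l2 event 2 was included at 0.167 and 0.168 in Ctr, 0.0433 and 0.0893 under Raver2 knockdown and 0.138 and 0.152 under Setd2 knockdown (chromosome X, 136732942 to 136743690, minus strand). Every knockdown library was below Ctr, and the Raver2 libraries were also below the Setd2 libraries. The difference under Raver2 knockdown was -0.101 ± 0.0186 (SE; limma, adjusted p = 0.159). Between the knockdowns it was -0.0789 ± 0.0186 (adjusted p = 0.534), and neither passed. Event 1 of Morf4l2 was below 0.01 in all 6 libraries. The single event of Morf4l1 was at 0.132 and 0.0827 in Ctr, 0.0157 and 0.0604 under Raver2 knockdown and 0.0690 and 0.0247 under Setd2 knockdown. Here too the 4 knockdown libraries were below Ctr, while the 2 libraries of each group differed by 0.0443 to 0.0492. GENCODE M21 annotates 3 coding cassette exons in Morf4l1, 2 of them forms of a single exon with different ends, and 2 non-coding ones in Morf4l2; which of them the events concern is not known here.

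Among the other acetyltransferase genes, Ncoa6, a scaffold of nuclear receptor coactivation, was included at 0.927 and 0.940 in Ctr, 0.948 and 0.930 under Raver2 knockdown and 0.975 and 0.964 under Setd2 knockdown. The Setd2 libraries lay above the other 4, by 0.0358 ± 0.00967 from Ctr (SE; limma, adjusted p = 0.292), and the Raver2 minus Setd2 difference was -0.0306 ± 0.00967 (adjusted p = 0.769). Kat5, the TIP60 acetyltransferase of the DNA damage response, had an event 1 at 0.322 and 0.308 in Ctr, 0.263 and 0.248 under Raver2 knockdown and 0.302 and 0.357 under Setd2 knockdown (Raver2 against Setd2 knockdown, adjusted p = 0.964). Its event 2 ranged from 0.0403 to 0.155 with every group overlapping. Kat7, which acetylates histones at replication origins, had an event 1 between 0.695 and 0.788 and an event 2 from 0.9795 to above 0.99.

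Methyltransferase family genes gave no call with every library included. Ehmt1 and Ehmt2 form the GLP and G9a heterodimer, which methylates lysine 9 of histone H3. Ehmt1 event 2 was included at 0.925 and 0.973 in Ctr, 0.874 and 0.887 under Raver2 knockdown and 0.879 and 0.864 under Setd2 knockdown. All 4 knockdown libraries were below Ctr, with differences of -0.0682 ± 0.0193 under Raver2 knockdown and -0.0773 ± 0.0193 under Setd2 knockdown that did not pass (SE; limma, adjusted p = 0.324 and 0.263). Events 1 and 3 of Ehmt1 overlapped between all groups. The single event of Ehmt2 was at 0.612 and 0.634 in Ctr and 0.512 and 0.514 under Raver2 knockdown, while the Setd2 libraries were split at 0.445 and 0.636. Ezh2 and Suz12 are subunits of Polycomb repressive complex 2. Ezh2, the enzyme, had complementary events, and event 1 stayed between 0.0894 and 0.120 in all libraries. Suz12, a core subunit, was at 0.884 and 0.849 in Ctr, 0.930 and 0.900 under Raver2 knockdown and 0.893 and 0.916 under Setd2 knockdown (Raver2 knockdown against Ctr, adjusted p = 0.487).

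Prdm16, a transcription regulator of brown fat and stem cells, was included at 0.336 and 0.267 in Ctr and 0.129 and 0.0870 under Raver2 knockdown, with the Setd2 libraries split at 0.0964 and 0.269. The Raver2 difference of -0.194 ± 0.0714 did not pass (SE; limma, adjusted p = 0.434). Setdb1, which methylates lysine 9 of histone H3 at silenced repeats, was at or below 0.0104 in Ctr, 0.0101 and 0.0179 under Raver2 knockdown and 0.0707 and 0.0203 under Setd2 knockdown. Kmt2b, a methyltransferase of lysine 4 of histone H3, was above 0.99 in 5 libraries and 0.479 in the library of Setd2 sh2. Without Setd2 sh1 it was called lower under Setd2 knockdown than in Ctr (limma, adjusted p = 0.00323) and than under Raver2 knockdown (adjusted p = 0.00321), which rests on that single library. Prmt1, the main arginine methyltransferase, was low throughout, from 0.0639 to 0.102. The demethylase family gene Jmjd4 had an event 1 at 0.369 and 0.555 in Ctr, 0.271 and 0.296 under Raver2 knockdown and 0.348 and 0.460 under Setd2 knockdown, and its events 2 and 3 stayed above 0.99 and below 0.01.

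**Figure D3:**
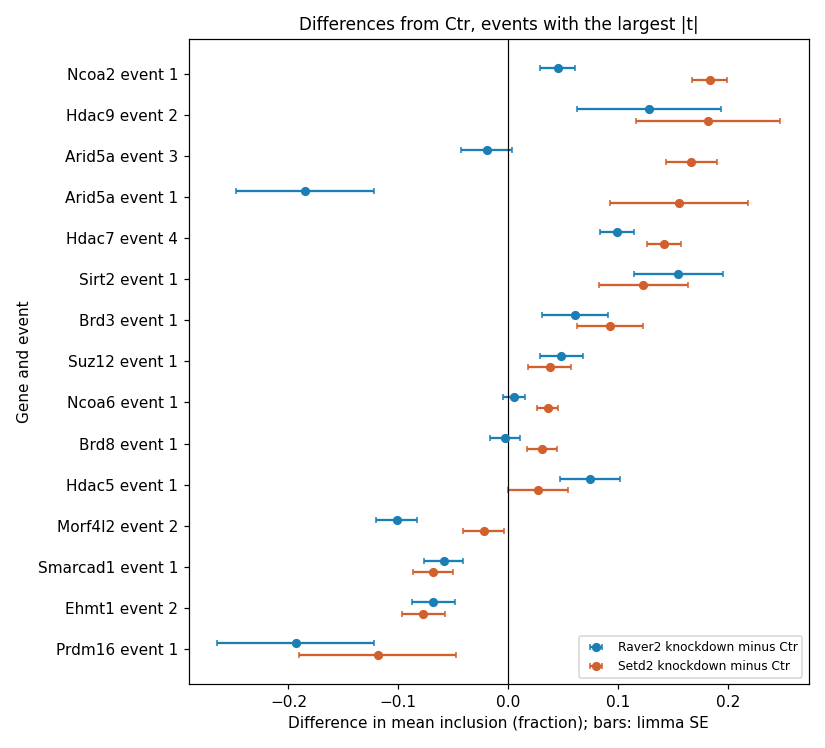
Difference in mean inclusion from Ctr (x axis, fraction, with limma SE as bars) for the 15 chromatin gene events (y axis) with the largest absolute moderated t against Ctr, 1 event per gene and comparison. Both comparisons use the same Ctr libraries; the differences of Arid5a event 1 point to opposite sides, while Hdac7 event 4 and Sirt2 lie above 0 in both.

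Arid5a, an AT-rich interaction domain protein that also stabilises some cytokine transcripts, had a pair of events whose Raver2 and Setd2 libraries lay well apart (chromosome 1, 36307733 to 36324029, plus strand). Event 1 was included at 0.4999 and 0.494 in Ctr, 0.253 and 0.371 under Raver2 knockdown and 0.673 and 0.632 under Setd2 knockdown. The Raver2 libraries were below Ctr and the Setd2 libraries above, with no overlap. Under Raver2 knockdown the difference from Ctr was -0.185 ± 0.0628 (SE; limma, adjusted p = 0.405). The knockdowns differed by -0.341 ± 0.0628 (Raver2 minus Setd2, SE), which did not pass (limma, adjusted p = 0.373). Event 3 was at 0.823 and 0.837 in Ctr, 0.780 and 0.840 under Raver2 knockdown and above 0.99 in both Setd2 libraries. Its differences, 0.166 ± 0.0231 for Setd2 knockdown against Ctr (adjusted p = 0.0854) and -0.186 ± 0.0231 between the knockdowns (adjusted p = 0.153), did not pass on the scale of the fractions. On the scale of log2 odds both Setd2 fractions were held at 0.99 and so lost their spread. There both differences passed (limma, adjusted p = 0.00792 and 0.0127). Without Raver2 sh1 both passed as well (0.0471 and 0.0402), and without Raver2 sh2 the difference between the knockdowns passed (0.0267). Event 2 was at or below 0.0112 in every library.

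Smarcb1, a core subunit of the SWI/SNF remodeller, was included at 0.393 and 0.428 in Ctr, 0.507 and 0.535 under Raver2 knockdown and 0.464 and 0.443 under Setd2 knockdown, with no overlap between the 3 groups and no call. Smarcc2, a scaffold subunit of the same complex, had an event 1 from 0.0416 to 0.0787 and an event 2 from 0.383 to 0.585, which overlapped. Smarcad1, a remodeller of the SNF2 family, was above 0.99 in both Ctr libraries, 0.935 and 0.939 under Raver2 knockdown and 0.903 and 0.951 under Setd2 knockdown. The 4 knockdown libraries were below Ctr, with adjusted p = 0.367 and 0.282 (limma). Without Setd2 sh2 the Setd2 difference from Ctr was -0.0922 and was called, which rests on the library of Setd2 sh1 alone. Arid4b, a subunit of the Sin3 deacetylase complex, was at 0.488 and 0.289 in Ctr, 0.368 and 0.382 under Raver2 knockdown and 0.482 and 0.412 under Setd2 knockdown. All 4 knockdown libraries lay between the Ctr libraries, and the Raver2 libraries lay below the Setd2 libraries.

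Smarca1, the ATPase SNF2L of the ISWI family, was discordant within Ctr: it was included at 0.246 in Ctr library 1 and above 0.99 in Ctr library 2, and at 0.0251 to 0.0516 in the 4 knockdown libraries. The mean differences from Ctr were -0.585 and -0.596, and neither passed with both Ctr libraries. Without Ctr library 1 the differences were -0.961 and -0.973 (Raver2 and Setd2 knockdown), and without Ctr library 2 they were -0.208 and -0.219. The event passed in both knockdowns without either Ctr library. Leaving out either of them removes the disagreement within Ctr from the spread, so these fits cannot show whether the difference is repeatable.

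Readers of histone marks gave no call with every library included. The bromodomain proteins Brd2 and Brd3 bind acetylated histones. Brd3 was included at 0.0760 and 0.0473 in Ctr, 0.123 and 0.122 under Raver2 knockdown and 0.192 and 0.116 under Setd2 knockdown (Setd2 knockdown against Ctr, limma, adjusted p = 0.3899). All 4 knockdown libraries lay above Ctr. Brd2 ranged from 0.391 to 0.470. Brd8, a subunit of the TIP60 complex, had an event 1 at 0.931 and 0.945 in Ctr, 0.951 and 0.920 under Raver2 knockdown and 0.964 and 0.974 under Setd2 knockdown (Setd2 knockdown against Ctr, adjusted p = 0.537, and Raver2 against Setd2 knockdown, adjusted p = 0.912), and an event 2 from 0.544 to 0.651.

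Cbx5, the heterochromatin protein HP1 alpha, was above 0.99 in both Ctr libraries and in Raver2 sh1, and at 0.660 in Raver2 sh2 and 0.655 and 0.838 under Setd2 knockdown. Phf21a, a subunit of the Lsd1 corepressor complex, was at 0.700 and 0.735 in Ctr, 0.684 and 0.740 under Raver2 knockdown and 0.662 and 0.610 under Setd2 knockdown (Raver2 against Setd2 knockdown, limma, adjusted p = 0.964). Phf21b was at or below 0.0309 in 5 libraries and 0.250 in Setd2 sh1. Without Setd2 sh2 it was called higher under Setd2 knockdown than in Ctr (adjusted p = 0.0119) and than under Raver2 knockdown (adjusted p = 0.0118), again on a single library. Phf8, a histone demethylase with a PHD finger, ranged from 0.782 to 0.828, and Phf23 from 0.769 to 0.890. Mbd5, of the methyl-CpG-binding domain family, was at 0.957 and 0.943 in Ctr, 0.938 and 0.960 under Raver2 knockdown and 0.964 and 0.978 under Setd2 knockdown (Raver2 minus Setd2, -0.0221 ± 0.0113; adjusted p = 0.964).

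DNA methylation genes and corepressors completed the set. Dnmt3b, a de novo DNA methyltransferase, had an event 2 at 0.337 and 0.302 in Ctr, 0.374 and 0.323 under Raver2 knockdown and 0.408 and 0.563 under Setd2 knockdown, and an event 1 from 0.113 to 0.199. Tet1, which oxidises methylcytosine, was at 0.978 and above 0.99 in Ctr, 0.951 and 0.905 under Raver2 knockdown and 0.942 and above 0.99 under Setd2 knockdown. Ncor1 event 1 was at 0.368 and 0.402 in Ctr, 0.441 and 0.379 under Raver2 knockdown and 0.387 and 0.473 under Setd2 knockdown, so its groups overlapped.

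Dnmt3l, the catalytically inactive partner of the de novo methyltransferases, had all-or-none values. Event 1 was above 0.99 in Ctr library 1 and below 0.01 in the other 5 libraries. Events 2 and 3, equal to each other, were below 0.01 in Ctr library 1 and Setd2 sh2 and above 0.99 in the other 4. Without Ctr library 2, event 1 was called lower in both knockdowns (limma, adjusted p = 0.000725 and 0.000724). The gene lies on chromosome 10 (78041947 to 78063622, plus strand), and 1664 bases of it overlap Aire on the opposite strand. In all, 11 of the 43 genes overlap another protein-coding gene, each on the opposite strand; among them are Hdac7 by 29 bases with Slc48a1 and Sirt2 by 778 bases with Nfkbib. Whether strand was used in the authors' processing is not given in the sources used here, so reads from such stretches cannot be assigned.

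For Raver2 knockdown against Ctr, 0 of the 75 chromatin events passed (limma), against 2.43% of all events (1.01% higher and 1.42% lower). An unadjusted p under 0.05 was found for 6 of them and for 560 of all 4658 events. Between the knockdowns, 0 of 75 passed (limma) against 0.730% (0.408% higher and 0.322% lower), with an unadjusted p under 0.05 for 7 and for 285 of all events. For Setd2 knockdown against Ctr these counts were 9 and 540. The Raver2 and Ctr libraries did not overlap in 37 of the 75 events, 16 higher and 21 lower, against 44.0% of all events (20.7% higher and 23.4% lower). For Setd2 knockdown this was so in 34 events, 20 higher and 14 lower, against 42.5% (21.2% and 21.3%). Between the knockdowns it was so in 27, 8 higher and 19 lower under Raver2 knockdown, against 33.8% (15.3% and 18.4%). No minimum gap was asked for, so Kmt2b counted as lower under Raver2 knockdown with a difference from Ctr of -0.000294. Equal and complementary events of a gene, such as those of Hdac9, were counted separately. Fractions at an end of the scale were present in 28.0% of the chromatin events and 57.1% of all events, so these shares compare unlike sets. The median difference was below 0.01 in absolute size in each comparison, for the chromatin events as for all events. The comparisons with Ctr share both Ctr libraries.

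The spread between libraries of a group set the limit of these comparisons. The 2 libraries differed by more than 0.1 in 16 of 75 chromatin events in Ctr (21.3%, against 27.7% of all events), in 8 under Raver2 knockdown (10.7% against 22.9%) and in 14 under Setd2 knockdown (18.7% against 25.5%). They differed by more than 0.5 in 4, 0 and 4 events. In Ctr these 4 were the 3 events of Dnmt3l and that of Smarca1, and under Setd2 knockdown they included events 2 and 3 of Dnmt3l and that of Kmt2b. The median difference between libraries was 0.0341 for chromatin events and 0.0335 for all events in Ctr. It was 0.0218 against 0.0277 under Raver2 knockdown and 0.0474 against 0.0296 under Setd2 knockdown. Fractions at an end of the scale were present in 28.0% of chromatin events and 57.1% of all events, so these are unlike sets.

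**Figure D4:**
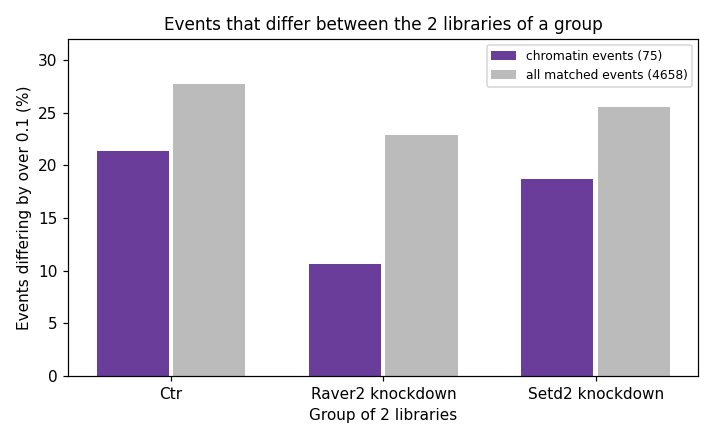
Percentage of events (y axis) whose fractions differ by more than 0.1 between the 2 libraries of a group (x axis), for the 75 chromatin events and for all 4658 matched events. The chromatin bars are at 21.3%, 10.7% and 18.7%, each below the bar for all events. The median difference was not lower for chromatin events in Ctr or under Setd2 knockdown.

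Other chromatin genes from a further list gave no call in any comparison. Of 113 further symbols looked up, 31 genes with 62 events were listed, and 0 events passed (limma), against 2.43%, 2.23% and 0.730% of all events for Raver2 knockdown, Setd2 knockdown and Raver2 against Setd2 knockdown. In the same order, 2, 4 and 3 of the 62 had an unadjusted p under 0.05, against 560, 540 and 285 of all 4658 events. The 4 for Setd2 knockdown were all lower than Ctr. Among them was Zmynd11, a reader of lysine 36 trimethylation on histone H3.3, at 0.767 and 0.791 in Ctr, 0.748 and 0.709 under Raver2 knockdown and 0.697 and 0.716 under Setd2 knockdown (adjusted p = 0.370). The others were Rcor3 event 2, Asxl2 and L3mbtl2. In Zmynd11, Asxl2 and L3mbtl2, but not in Rcor3 event 2, the Raver2 libraries also lay below both Ctr libraries. Asxl2 was at 0.792 and 0.791 under Raver2 knockdown against 0.862 and 0.825 in Ctr. L3mbtl2 was at 0.943 and 0.906 against 0.964 and 0.971. How many of all events at this unadjusted level were lower was not counted. Arid3c and Chd5, which belong to the symbol families, were not listed in every library and entered no comparison. Arid3c was listed in 3 libraries, at or below 0.00254, and Chd5 in 5, at 0.0356 in Ctr library 2, 0.0331 and 0.0342 under Raver2 knockdown and 0.0130 and 0.0168 under Setd2 knockdown.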

How the data were processed

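Each deposited value is a fraction from 0 to 1 for an alternative splicing event of a named gene, made by the authors from RNA amplified with a SMART-seq kit and a Nextera XT library, per the labels' protocols. Trimmomatic 0.39, TopHat2 and Cufflinks with mm10 are named in the submitters' processing notes, with no role or order. The computation of the fraction, the strand setting and any coverage filter were not given in the sources used here. Depth is unknown. Events were matched between libraries by gene and row order among genes with the same number of rows in all 6. In genes with several events the correlation across libraries was 0.742 to 0.802 at the same place and 0.0863 to 0.133 one place on. This bears on the events as a whole; a mismatch of single events was not tested.

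The test was limma 3.58.1 (R 4.3.3) on the fractions, a mean per group over all 6 libraries, variance trend, two-sided, Benjamini-Hochberg over 4658 events, threshold 0.05. It was run on simulated fractions that varied less between libraries than these, so that check does not show its error rate here. Tables and plots used Python 3.11.15, pandas 2.3.3 and matplotlib 3.10.9; positions come from GENCODE M21 by symbol, which matched all 43 genes. Ctr libraries 1 and 2 are numbered in order of accession. Alternatives were log2 odds (fractions held within 0.01 and 0.99), the arcsine of the square root, no variance trend, only the 4 libraries compared, events without a fraction below 0.01 or above 0.99, repeated events left out, each library left out and a hairpin block.

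The members, lists and naming rule were chosen with earlier results of these data known. The rule gave a test for every called event and the 10 events with the largest absolute moderated t in each comparison, 1 per gene; it also named genes tied to histone H3 lysine 36 methylation or known for alternative exons, genes with 5 or more events, the 5 events that differed most within Ctr, and members not matched. All other members were described after their values were seen. The events of 2 members, 4 in all, stayed in every fit and count but are not reported here by name or plotted.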

Additional observations from a re-analysis of the deposited data

How the results depend on the processing

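Counts of chromatin events past the threshold were small and moved with the settings. For Setd2 knockdown against Ctr, 2 events became 1 with no variance trend, 0 with only the 4 libraries compared, 0 among events away from the ends of the scale and 1 with repeated events left out, and stayed at 2 on the log2 odds and arcsine scales, where Arid5a event 3 passed and Hdac7 event 4 did not. With a library left out the count ranged from 0 to 2. For Raver2 knockdown against Ctr, 0 events were called in the settings that kept all libraries of the pair and 0 to 2 with a library left out. Between the knockdowns, 0 became 1 on the log2 odds scale (Arid5a event 3) and ranged from 0 to 2 with a library left out. Over all events the counts were 75, 0 and 46 with only the 4 libraries compared and 10, 6 and 0 among events away from the ends of the scale, against 113, 104 and 34 in the order Raver2 knockdown, Setd2 knockdown and Raver2 against Setd2 knockdown. With a library left out they ranged from 74 to 291, 48 to 279 and 46 to 119.

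Hairpin numbers are shared between the knockdown groups but name different hairpins; the deviations of the libraries of the same number correlated at 0.0146 across 4658 events. With the number as a replicate block, 0 chromatin events and 0 of all events were called between the knockdowns, against 0 and 34 without it. No block against Ctr was fitted because the Ctr libraries carry no number. Of 87 differences of events named for reasons other than a call or a large t, 44 changed sign or came to 0 in some setting. Equal and complementary events, such as those of Ncor1, were counted separately there. Of the 30 named for a call or a large t, 0 changed sign or came to 0. These were chosen by the size of t, which largely fixes the direction. Calls made with a single library left out, such as those of Smarca1, Dnmt3l, Kmt2b and Phf21b, rest on groups with 1 library, which is assumed to vary like the others. Unknown depth limits every value, most of all near 0 and 1.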
